A study of Mus musculus with 18 samples.

Results

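AP-1 subunits and other immediate early transcription factors were described across 6 groups of mouse intestinal dendritic cells (DCs). The 10 genes were Fos, Fosb, Jun, Junb, Jund, Atf3, Egr1, Egr3, Nr4a1 and Ier2, taken as a list of known names and found in the read count table by Ensembl identifier. They made up 10 of the 54232 genes listed, and all 10 were among the 17074 genes that passed the filter on low counts and were tested.

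Libraries were made from sorted DCs of C57BL/6J mice whose genotype is given as CD11a KO, CD11a being the alpha subunit of LFA-1, and all groups carry that label. There were 18 RNA-seq libraries, 3 in each group, of CD11b+, CD103+ and double-positive (CD11b+ CD103+) DCs from the small intestinal lamina propria (LP) and from intestinal lymph node (LN). The LP was taken without Peyer's patches, and sorted DCs were live single CD45+ CD64- cells with high MHC class II and CD11c. No treatment is given for these mice, and neither age, the number of animals behind a library, nor how cells were freed from either tissue was stated in the labels. No wild-type library was analysed, so differences between tissues and subsets are reported and no effect of the genotype. Nothing says that replicates came from separate animals, and p-values then measure only the spread between these libraries, which may be technical.

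Total counts per library lay between 23574292 and 46901985, with medians of 27311923 in LP and 27401041 in LN. The DC genes Itgax and H2-Ab1 were read in every library but were called lower in LN in CD103+ DCs (from 393 to 86.5 CPM and from 27792 to 3582 CPM) and in double-positive DCs. Of 5 DC genes listed, 0 were called in CD11b+ DCs, 3 were lower in CD103+ DCs, and 2 were lower and 1 higher in double-positive DCs. All genes were lower at 4.93%, 15.1% and 13.6% and higher at 10.3%, 19.8% and 18.6% in these subsets. Itgae (CD103) was higher in CD103+ and double-positive than in CD11b+ DCs of the same tissue, and Itgam (CD11b) was at or below 1.26 CPM in all CD103+ libraries. Itgae was called lower in LN in every subset, from a mean of 1337 to 35.4 CPM in CD103+ and from 812 to 46.1 CPM in double-positive DCs. Itgam went from 61.3 to 20.8 CPM in CD11b+ and from 68.5 to 5.16 CPM in double-positive DCs. Summed markers of the DC lineages cDC1 (Xcr1, Clec9a, Irf8) and cDC2 (Sirpa, Irf4) also moved with tissue. From LP to LN, mean cDC1 sums went from 6308 to 1753 CPM in CD103+ DCs. They went from 115 to 783 CPM in double-positive and from 173 to 464 CPM in CD11b+ DCs. Mean cDC2 sums went from 10.1 to 41.5, 499 to 200 and 582 to 737 CPM in the same order. Whether a subset held the same cells in both tissues was not tested. Itgal, which encodes CD11a, was read in all 18 libraries at 6.45 to 26.6 CPM (counts scaled by library size) and was called lower in LN than in LP CD103+ DCs (-1.49 on the log2 scale), so these counts do not check the genotype given, and where in the gene the reads lie was not tested. The tissues differed in the sex of the animals: LP libraries held 0 to 0.286 CPM of Xist and 50.04 to 74.4 CPM of the Y-linked Ddx3y, whereas all 9 LN libraries held Xist at 15.4 to 89.1 CPM. LN CD11b+ replicate 3 and LN double-positive replicate 3 held both transcripts, with 58.0 and 52.2 CPM of Ddx3y. Tissue and sex of the animals cannot be told apart in these libraries, and results that changed without those 2 libraries are given with both values. Summed T cell markers (7 genes) were 7.43 to 36.0 CPM in LP and 296 to 646 CPM in LN, and their part in the tissue differences was not tested.

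Immediate early genes are transcribed within minutes of a stimulus, without new protein synthesis, from promoters that hold sites for the serum response factor and for CREB, and most of their mRNAs are short-lived. AP-1 is a dimer of a JUN protein with a FOS, JUN or ATF protein: FOS proteins cannot pair with each other, whereas JUN proteins can. In myeloid cells these factors act downstream of MAP kinases, pattern recognition receptors and cytokine receptors, and they are also known to be induced when cells are freed from tissue by digestion. In RNA from sorted populations, fewer cells with a transcript and less of it in each cell cannot be told apart.

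Promoter sequences were read from RefSeq (GRCm38.p6), in which 7 of the 10 genes had an entry. The 250 bases before the start site are shown for Fos, Fosb and Nr4a1, called lower in LN in 2 of the 3 subsets. They are also shown for Jun and Junb, which were not called in any subset. This split rests on the 2-fold limit of the call. In double-positive DCs Jun and Junb lay just short of it, with log2 fold changes of -0.99 and -0.98. In CD103+ DCs Fosb lay just past it, at -1.01. Capitals mark TGACG or its reverse complement CGTCA, the half-site of the cAMP response element to which CREB and ATF proteins bind. Fos is given from chr12:85473640-85473889 on the plus strand, Fosb from chr7:19310046-19310295 on the minus strand, Nr4a1 from chr15:101266596-101266845 on the plus strand, Jun from chr4:95052223-95052472 on the minus strand and Junb from chr8:84978749-84978998 on the minus strand.
Fos: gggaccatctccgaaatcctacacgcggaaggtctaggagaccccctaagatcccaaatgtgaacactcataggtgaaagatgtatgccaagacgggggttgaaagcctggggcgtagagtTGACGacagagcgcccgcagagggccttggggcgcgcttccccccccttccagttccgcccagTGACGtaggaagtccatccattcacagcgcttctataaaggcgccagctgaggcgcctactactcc
Fosb: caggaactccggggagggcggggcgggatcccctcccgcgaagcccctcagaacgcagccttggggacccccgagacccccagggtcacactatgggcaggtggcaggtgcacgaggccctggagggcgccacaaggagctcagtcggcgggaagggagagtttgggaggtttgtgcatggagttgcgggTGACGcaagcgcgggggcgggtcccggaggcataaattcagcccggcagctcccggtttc
Nr4a1: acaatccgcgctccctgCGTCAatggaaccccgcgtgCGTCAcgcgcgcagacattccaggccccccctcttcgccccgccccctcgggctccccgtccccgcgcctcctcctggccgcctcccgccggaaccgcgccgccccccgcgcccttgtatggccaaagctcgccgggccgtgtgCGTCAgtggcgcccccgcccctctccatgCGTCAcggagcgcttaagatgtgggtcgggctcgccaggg
Jun: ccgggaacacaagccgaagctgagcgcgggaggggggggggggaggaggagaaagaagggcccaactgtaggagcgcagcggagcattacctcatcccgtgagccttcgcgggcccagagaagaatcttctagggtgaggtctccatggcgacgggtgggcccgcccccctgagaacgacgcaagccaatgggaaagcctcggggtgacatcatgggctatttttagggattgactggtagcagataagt
Junb: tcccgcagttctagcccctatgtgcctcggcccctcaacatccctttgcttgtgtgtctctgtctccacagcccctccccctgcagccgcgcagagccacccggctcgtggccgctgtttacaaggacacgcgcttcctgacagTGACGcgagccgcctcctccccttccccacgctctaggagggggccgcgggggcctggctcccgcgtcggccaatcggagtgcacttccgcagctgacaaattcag

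The half-site, a search chosen after the sequences had been read, was present in 5 of 7 windows of 300 bases (250 before and 50 after the start), with 4 matches for Nr4a1, 2 for Fos and 1 each for Fosb, Junb and Atf3. Of all 32851 promoter windows of that length 20.8% held it on either strand. Jun and Jund had none. The full element TGACGTCA, which contains the half-site, was in 0 of 7 windows (1.79% of all), as were the AP-1 site TGANTCA (7.81%) and the CArG box of serum response factor (1.63%), each searched on both strands. Bases further than 250 before the start were not searched, nor were Egr1, Egr3 and Ier2, which had no entry. Absence from a window thus does not show that a gene lacks the site. An EGR site GCGNGGGCG was found for Fosb and Nr4a1 (5.55% of all, both strands), and the letters TATAAA, those of a TATA box, on the plus strand for Fos and Junb (8.32%), for Fos 33 bases before the start and for Junb at the start base itself, outside the printed stretch. Half-sites were thus found both in genes called lower in LN and in Junb, which was not called. These letters are matches in a window, not measured binding. The start used by RefSeq was not always the outermost one of GENCODE: that of Nr4a1 lay 12577 bases and that of Atf3 34706 bases inside the gene, 0 and 7 bases from the start of a shorter GENCODE transcript. For Junb the RefSeq start lay 30 bases before the nearest GENCODE start, so its TATAAA began 30 bases before the latter. The RefSeq start of Jund lay 1210 bases from any GENCODE start, and the window of Jund is not shown.

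Levels are given as CPM after TMM scaling, and a gene was called higher or lower at an adjusted p under 0.01 (Benjamini-Hochberg over the 17074 genes, edgeR's quasi-likelihood test) with a fold change over 2. A gene that was not called is said to have held where the 95% interval of its log2 fold change lay within -1 and 1, and is otherwise called not resolved. Log2 fold changes of tissue are LN over LP.

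**Figure D1:**
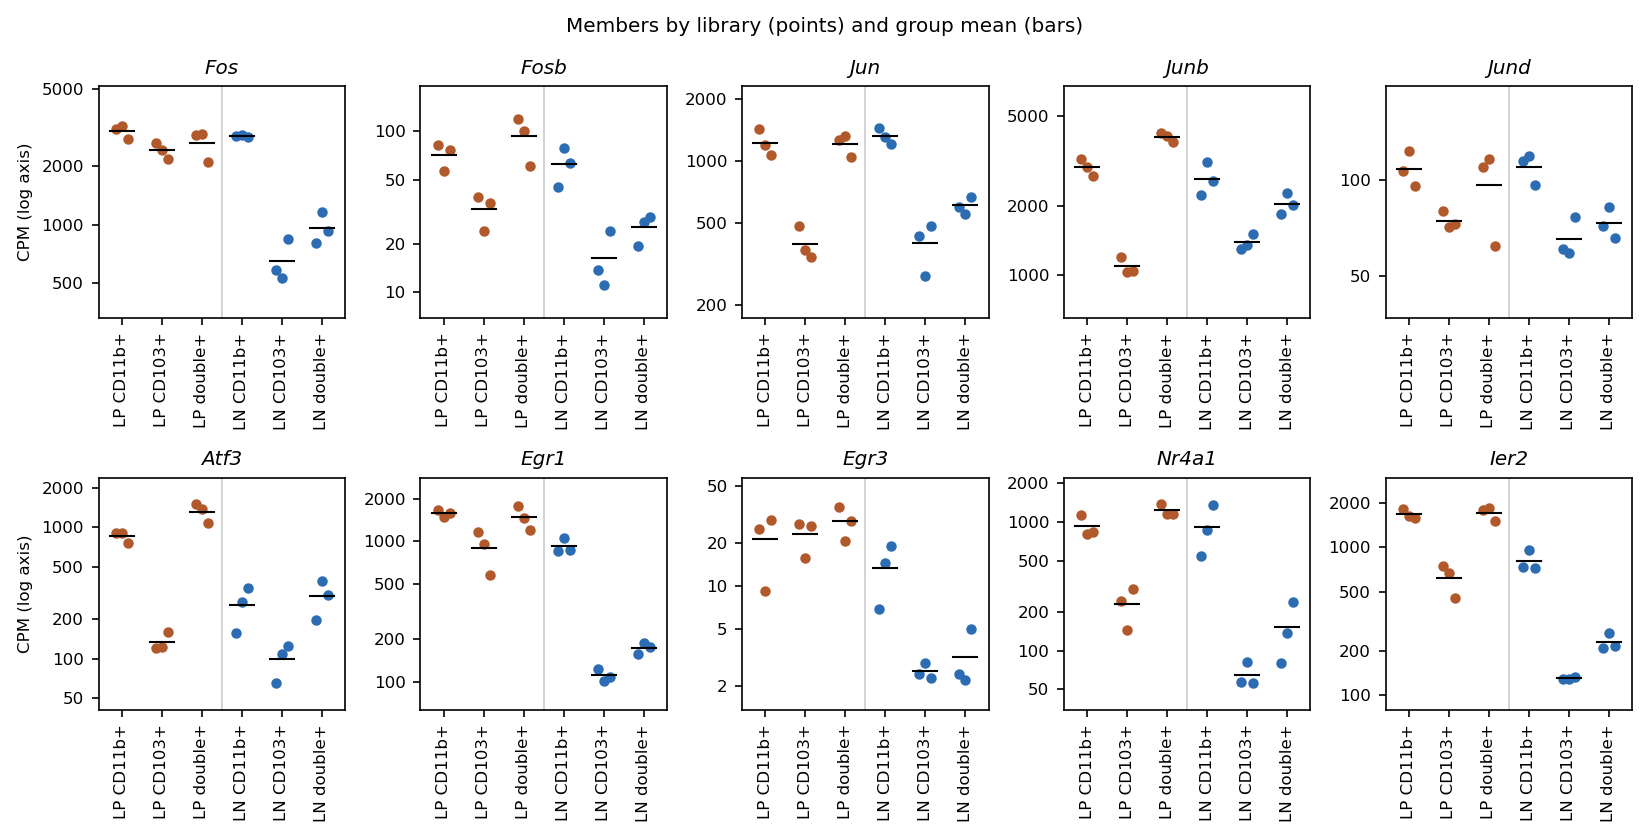
CPM of the 10 genes in each of the 18 libraries, on a log axis with its own range for each gene. Points are libraries (brown LP, blue LN, replicates 1 to 3 from left to right) and black bars are means of 3 libraries. The LN CD103+ and LN double-positive groups lie lowest for Fos, Egr1, Egr3, Nr4a1 and Ier2, while LN CD11b+ DCs keep Fos between 2815 and 2895 CPM.

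Fos, the founding FOS subunit of AP-1 (ENSMUSG00000021250, chromosome 12 from 85473890 to 85477273 of GRCm38, plus strand), was abundant in 4 groups and lower in LN CD103+ and LN double-positive DCs. In LP it was read at 3106, 3233 and 2773 CPM in CD11b+ DCs, at 2631, 2421 and 2189 in CD103+ and at 2891, 2922 and 2090.0 in double-positive DCs. In LN it was read at 2857, 2895 and 2815 CPM in CD11b+ DCs, at 581, 528 and 846 in CD103+ and at 800.2, 1155 and 930.4 in double-positive DCs. Every LP library and every LN CD11b+ library lay above every LN CD103+ and double-positive library. Fos fell, with log2 fold changes of -1.89 (SE 0.18, adjusted p = 7.4e-08) in CD103+ DCs and -1.45 (SE 0.17, adjusted p = 1.7e-06) in double-positive DCs. In CD11b+ DCs it held, with a log2 fold change of -0.09 and a 95% interval of -0.45 to 0.27, and under total counts without scaling that value was 0.048.

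Fosb, a FOS protein closely related to Fos (ENSMUSG00000003545, chromosome 7 from 19302696 to 19310051, minus strand), was far less abundant. Per kilobase of exon its mean lay between 2.61 and 15.0 CPM, against 277 to 1291 CPM for Fos. It was read at 81.8, 56.3 and 76.2 CPM in LP CD11b+, 39.0, 23.9 and 35.9 in LP CD103+ and 119, 100.4 and 60.6 in LP double-positive DCs. The LN values were 44.7, 78.9 and 63.0 CPM in CD11b+, 13.8, 11.01 and 24.1 in CD103+ and 19.3, 27.1 and 29.4 in double-positive DCs. The tissues were apart in double-positive DCs, where Fosb fell by 1.89 (SE 0.31, adjusted p = 5.6e-05), and overlapped in the other two subsets. In CD103+ DCs Fosb lay at the limits of the call, with -1.01 (SE 0.31, adjusted p = 0.0092). That call was lost without LP replicate 1 or 3 or LN replicate 1 or 2 of CD103+ DCs (log2 fold changes from -0.97 to -0.82, adjusted p from 0.025 to 0.045) and under 6 other alternatives. Without the 2 LN libraries that held both sex-linked transcripts it was -1.01 (adjusted p = 0.015), and the call was lost. In CD11b+ DCs Fosb held (-0.20, interval -0.83 to 0.43).

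Jun family members, which can form AP-1 with each other or with FOS proteins, were not called between tissues in any subset. Jun (ENSMUSG00000052684, chromosome 4 from 95049034 to 95052222, minus strand) was read at 1416, 1186 and 1064 CPM in LP CD11b+, 482, 368 and 339.9 in LP CD103+ and 1255, 1319 and 1036 in LP double-positive DCs. LN libraries held 1437, 1299 and 1207 CPM in CD11b+, 431, 276 and 484 in CD103+ and 599.5, 551 and 669 in double-positive DCs. Jun held between tissues in CD11b+ DCs (0.10, interval -0.27 to 0.48) and in CD103+ DCs (0.00, interval -0.38 to 0.38). All 3 LN double-positive libraries lay below all 3 from LP, with a log2 fold change of -0.99 (SE 0.18, adjusted p = 0.00017), a 1.98-fold difference just short of the 2-fold limit. It passed that limit without LP or LN replicate 3 of double-positive DCs (-1.09 and -1.08), under total counts (-1.16), with no filter (-1.01) and with only the 6 libraries compared (-1.02). Without the 2 LN libraries that held both sex-linked transcripts it was -1.06. Reads of Jun and of the overlapping antisense gene Junos (median count 37) are not told apart if counting ignored strand, on which the labels are silent.

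Junb, a JUN protein that binds the same sites as Jun (ENSMUSG00000052837, chromosome 8 from 84974484 to 84978718, minus strand), was read at 3230.4, 2972 and 2709.6 CPM in LP CD11b+, 1195, 1034 and 1036 in LP CD103+ and 4214, 4067 and 3816 in LP double-positive DCs. In LN the libraries held 2246, 3115 and 2571 CPM in CD11b+, 1303, 1355 and 1506 in CD103+ and 1846, 2279.7 and 2026 in double-positive DCs. CD103+ DCs of LN lay above those of LP without overlap, but the log2 fold change was 0.35 (SE 0.12, adjusted p = 0.016) and Junb held by the interval of 0.10 to 0.60. In double-positive DCs it had a log2 fold change of -0.98 (SE 0.12, adjusted p = 2.3e-06), again just under 2-fold, and it passed the limit without LP double-positive replicate 3 or LN double-positive replicate 2 (-1.01 and -1.06), under total counts (-1.15) and with only the 6 libraries compared (-1.003). CD11b+ DCs held Junb (-0.17, interval -0.42 to 0.08). Exons of Junb overlap those of Prdx2 on the opposite strand, so its count is uncertain where strand was ignored. Prdx2 itself had group means of 104 to 227 CPM, against 1088 to 4032 CPM for Junb, and was highest in the LP CD103+ group, where Junb was lowest.

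Jund, the JUN protein usually made without stimulation (ENSMUSG00000071076, chromosome 8 from 70698949 to 70700616, plus strand), varied least. Its libraries lay between 59.0 and 124 CPM over all 6 groups, and the tissues overlapped in each subset. The log2 fold changes were 0.02 in CD11b+ DCs, -0.19 in CD103+ DCs and -0.40 in the double-positive subset (interval -0.78 to -0.01, adjusted p = 0.071), and Jund held in all 3. In the CD11b+ comparison the sign was negative without LP CD11b+ replicate 3 or LN CD11b+ replicate 1 or 2 (-0.061 to -0.0090).

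Atf3, an ATF family partner of JUN proteins that is induced by stress and by Toll-like receptor signals and restrains inflammatory genes (ENSMUSG00000026628, chromosome 1 from 191170296 to 191218039, minus strand), was highest in LP double-positive and LP CD11b+ DCs. LP libraries held 903, 909 and 766 CPM in CD11b+, 122, 123 and 160.5 in CD103+ and 1497, 1382 and 1083 in double-positive DCs. LN libraries held 158, 270.1 and 347 CPM in CD11b+, 65.9, 108 and 125 in CD103+ and 198, 394 and 306 in double-positive DCs. LP and LN were apart in CD11b+ and double-positive DCs and overlapped in CD103+ DCs. Atf3 fell, with log2 fold changes of -1.73 (SE 0.29, adjusted p = 0.00015) in CD11b+ and -2.14 (SE 0.29, adjusted p = 7.1e-06) in double-positive DCs. In CD103+ DCs, where it was already low in LP, the difference was not resolved (-0.44, interval -1.03 to 0.16).

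EGR zinc finger factors, targets of ERK signalling through serum response factor, were called lower in LN CD103+ and double-positive DCs. Egr1 (ENSMUSG00000038418, chromosome 18 from 34859823 to 34864984, plus strand) was read at 1664, 1490.4 and 1593 CPM in LP CD11b+, 1169, 955 and 570.4 in LP CD103+ and 1776, 1465 and 1202 in LP double-positive DCs. In LN it was read at 850.3, 1058 and 868 CPM in CD11b+, 124, 101 and 108 in CD103+ and 159, 187 and 175 in double-positive DCs. No LN library reached an LP library of its subset. Egr1 fell, with log2 fold changes of -3.02 (SE 0.21, adjusted p = 2.0e-09, 8.10-fold) in CD103+ and -3.09 (SE 0.21, adjusted p = 2.1e-09, 8.52-fold) in double-positive DCs. In CD11b+ DCs the log2 fold change was -0.77 (SE 0.19, adjusted p = 0.0048), under the 2-fold limit and not resolved.

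Egr3, a related EGR factor often induced together with Egr1 (ENSMUSG00000033730, chromosome 14 from 70077203 to 70082614, plus strand), was the least abundant gene per kilobase in every group. It was read at 25.2, 9.30 and 29.0 CPM in LP CD11b+, 27.2, 15.6 and 26.4 in LP CD103+ and 35.8, 20.7 and 28.7 in LP double-positive DCs. In LN CD11b+ DCs it was read at 6.94, 14.4 and 18.98 CPM. LN CD103+ libraries held 2.45, 2.91 and 2.28 CPM (52 to 69 counts) and LN double-positive libraries 2.42, 2.20 and 4.99 CPM (62 to 105 counts), so that all 6 lay below all LP libraries. Egr3 fell, with log2 fold changes of -3.18 (SE 0.46, adjusted p = 1.4e-05) in CD103+ and -3.16 (SE 0.46, adjusted p = 1.5e-05) in double-positive DCs. The CD11b+ libraries of the tissues overlapped and the difference was not resolved (-0.65, interval -1.53 to 0.22).

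Nr4a1 encodes Nur77, an orphan nuclear receptor induced by antigen receptor and inflammatory signals (ENSMUSG00000023034, chromosome 15 from 101254269 to 101274795, plus strand). LP libraries held 1131, 809 and 831 CPM in CD11b+, 244, 144 and 298 in CD103+ and 1380.0, 1152 and 1152 in double-positive DCs. LN libraries held 539.6, 859.5 and 1341 CPM in CD11b+, 57.4, 81.6 and 55.7 in CD103+ and 79.5, 137 and 237 in double-positive DCs. The LN CD11b+ libraries spread on both sides of those of LP, while the other two subsets were apart between tissues. Nr4a1 fell, with log2 fold changes of -1.82 (SE 0.37, adjusted p = 0.00041) in CD103+ and -3.02 (SE 0.38, adjusted p = 3.5e-06, 8.13-fold) in double-positive DCs, and in CD11b+ DCs it held at -0.02 (interval -0.77 to 0.73). That last value was positive under total counts (0.11) and without LP CD11b+ replicate 1 or LN CD11b+ replicate 1 or 2 (0.029 to 0.25).

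Ier2, an immediate early nuclear protein encoded by a gene of 1 exon (ENSMUSG00000053560, chromosome 8 from 84661331 to 84662852, minus strand), was the only gene of the 10 called lower in all 3 subsets. It was read at 1801, 1616 and 1578 CPM in LP CD11b+, 749, 671 and 453 in LP CD103+ and 1784, 1847 and 1507 in LP double-positive DCs. In LN it was read at 732, 960.1 and 729.7 CPM in CD11b+, 130.0, 129 and 134 in CD103+ and 211, 264 and 215 in double-positive DCs. Tissues were apart in every subset. It was lower, with log2 fold changes of -2.26 (SE 0.16, adjusted p = 3.5e-09) in CD103+ and -2.90 (SE 0.17, adjusted p = 2.8e-10) in double-positive DCs. The fall in CD11b+ DCs was smaller, at -1.04 (SE 0.16, adjusted p = 6.6e-05). This last call was lost, at -0.98 each time, when LP CD11b+ replicate 1 or LN CD11b+ replicate 1 or 3 was left out, at -0.97 without both LN libraries that held both sex-linked transcripts, and at -0.90 under total counts.

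Counted together, 2 of the 10 genes fell in CD11b+ DCs (Atf3 and Ier2), 6 held (Fos, Fosb, Jun, Junb, Jund and Nr4a1) and 2 were not resolved, where 4.93% of the 17074 genes tested were called lower in LN. Under total counts the number falling was 1. In CD103+ DCs 6 fell (Fos, Fosb, Egr1, Egr3, Nr4a1 and Ier2), the 3 JUN genes held and Atf3 was not resolved, beside 15.1% of all genes called lower. In double-positive DCs 7 fell (those 6 and Atf3), Jund held, and Jun and Junb were not resolved, beside 13.6% of all genes. None was called higher in LN in any subset by edgeR's quasi-likelihood test or by DESeq2 (1 was higher at an unadjusted p under 0.05, Junb in CD103+ DCs), beside 10.3%, 19.8% and 18.6% of all genes in CD11b+, CD103+ and double-positive DCs (15.2%, 35% and 32.1% called either way). The median log2 fold change of the 10 was -0.18, -1.41 and -2.01 in these subsets, where that of all genes tested was 0.03, 0.04 and 0.07. LN libraries lay below LP libraries without overlap for 3, 5 and 9 of the 10 genes, against 23.1%, 31.5% and 31.2% of all genes tested.

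When the 3 tissue effects were averaged, 7 genes were called lower, beside 13% of all genes (19.7% higher, 32.7% either way). Ier2 (-2.07, SE 0.09), Egr1 (-2.29, SE 0.12) and Egr3 (-2.33, SE 0.25) had the largest values, followed by Nr4a1 (-1.62), Atf3 (-1.44), Fos (-1.14) and Fosb (-1.03). Jun (-0.29), Junb (-0.26) and Jund (-0.19) held. The call of Fosb ended, at -0.997 to -0.962, when LP replicate 1 of any subset, LN CD103+ replicate 2 or LN double-positive replicate 1 was left out.

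**Figure D2:**
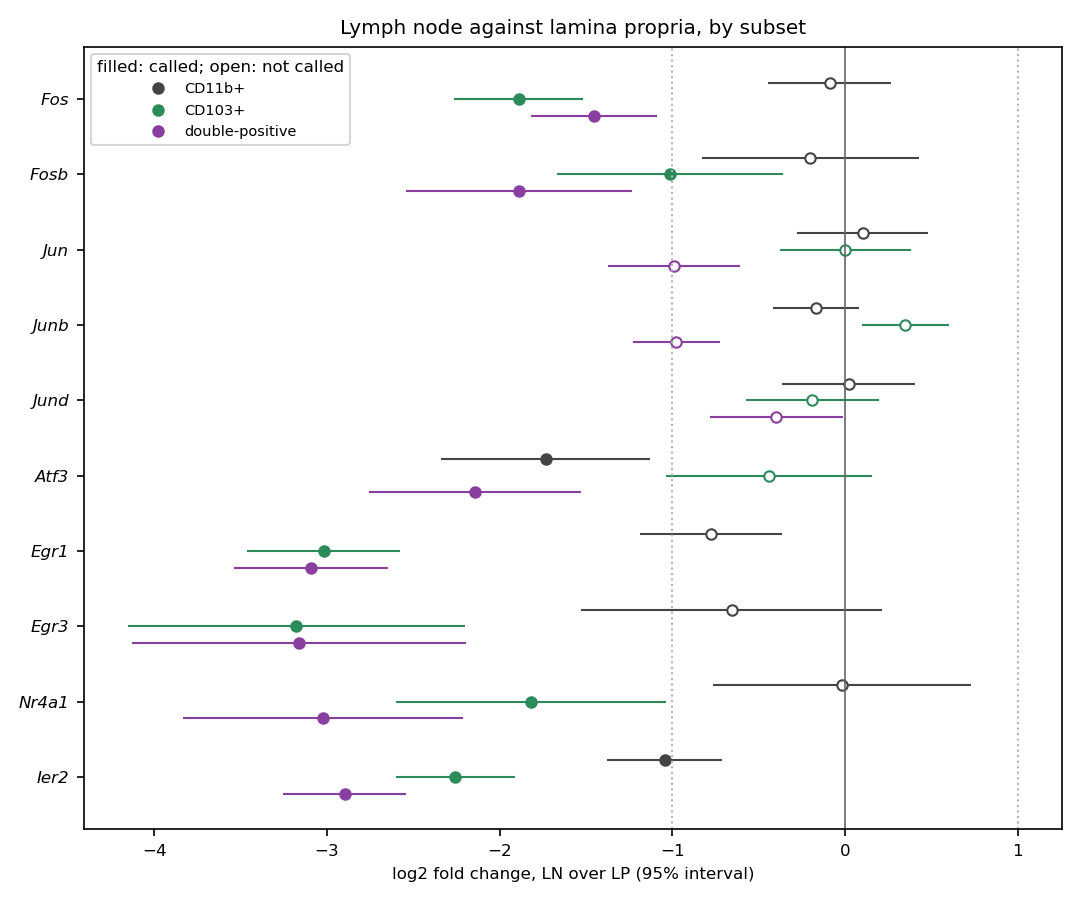
Log2 fold change of LN over LP for each of the 10 genes (rows) in CD11b+ (grey), CD103+ (green) and double-positive DCs (purple). Bars are 95% intervals, dotted lines mark 2-fold and filled points passed the call. Egr1 and Egr3 lie near -3 in CD103+ and double-positive DCs, while the 3 JUN genes have no filled point.

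Whether the tissue effect differed between subsets was tested in the same fit. An F test across the 3 subsets passed an adjusted p of 0.01 for 8 of the 10 genes (Fos, Jun, Junb, Atf3, Egr1, Egr3, Nr4a1 and Ier2), beside 31.5% of all genes tested. Fosb (adjusted p = 0.012) and Jund (adjusted p = 0.40) did not pass. The fall was larger in CD103+ than in CD11b+ DCs for 5 genes, beside 9.2% of all genes called in that direction (9.27% in the other, 18.5% either way), with log2 differences of -1.80 for Fos (SE 0.24, adjusted p = 1.7e-05), -2.24 for Egr1, -2.52 for Egr3, -1.80 for Nr4a1 and -1.21 for Ier2. It was larger in double-positive than in CD11b+ DCs for 7 genes, beside 5.94% of all genes (5.7% in the other direction, 11.6% either way), with differences of -3.01 for Nr4a1 (SE 0.51, adjusted p = 0.0003), -2.51 for Egr3, -2.32 for Egr1, -1.85 for Ier2, -1.69 for Fosb, -1.36 for Fos and -1.09 for Jun. Between double-positive and CD103+ DCs the tissue effect differed for 2 genes, Junb (-1.33, SE 0.17, adjusted p = 2.4e-05) and Atf3 (-1.70, SE 0.40, adjusted p = 0.0051), beside 4.2% of all genes called in that direction (4.17% in the other, 8.37% either way).

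Several of these calls lay near the limit of the adjusted p and were lost with 1 library fewer. That of Nr4a1 for CD103+ against CD11b+ DCs (adjusted p = 0.0098) was lost when any of 9 of the 12 libraries was left out, all but LP CD103+ replicate 2, LN CD11b+ replicate 1 and LN CD103+ replicate 2 (-1.98 to -1.48, adjusted p from 0.011 to 0.028). For double-positive against CD11b+ DCs, Fosb was lost without any of 8 libraries (-1.75 to -1.47, adjusted p from 0.011 to 0.021), all but LP CD11b+ replicate 1, LP double-positive replicate 3, LN CD11b+ replicate 1 and LN double-positive replicate 3. Jun was lost there without any of LP CD11b+ replicate 3, LP double-positive replicates 1 and 2 and LN double-positive replicate 2 (-1.06 to -1.001, adjusted p at most 0.012), and Egr3 without LP double-positive replicate 1, LN CD11b+ replicate 3 or LN double-positive replicate 1 or 2 (-2.35 to -2.20, adjusted p at most 0.015). The difference of Atf3 between double-positive and CD103+ DCs was lost without any of 8 libraries, all but LP CD103+ replicate 3, LP double-positive replicate 3, LN CD103+ replicate 1 and LN double-positive replicate 2 (-1.71 to -1.46, adjusted p from 0.012 to 0.018). Without both LN libraries that held both sex-linked transcripts, the difference of Nr4a1 between CD103+ and CD11b+ DCs (-1.42) and that of Fosb between double-positive and CD11b+ DCs (-1.80) were lost. Fos, Egr1, Ier2 and Junb kept each of the calls named here whichever library was left out.

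Subsets were then compared within each tissue, in comparisons that share libraries with each other and with those of tissue. In LP, CD103+ DCs had lower levels than CD11b+ DCs of 6 genes, beside 10.6% of all genes called lower (5.07% higher, 15.7% either way), with log2 fold changes of -2.67 for Atf3 (SE 0.30, adjusted p = 1.7e-06), -2.01 for Nr4a1, -1.62 for Jun, -1.45 for Junb, -1.42 for Ier2 and -1.12 for Fosb. Fos (-0.33), Jund (-0.54) and Egr3 (0.12) held, and Egr1 (-0.82, adjusted p = 0.0032) was not resolved. Jun and Junb, which held between tissues in CD103+ DCs, were thus among the genes that set LP CD103+ DCs apart, and Fos was not. The call of Fosb was lost without LP CD11b+ replicate 1 or 3 or any LP CD103+ replicate (-1.26 to -0.93) and with the replicate number as a block over both tissues (-1.12, adjusted p = 0.010) or without the 2 LN libraries with both sex-linked transcripts (-1.12, adjusted p = 0.013), and without LP CD103+ replicate 1 Egr1 passed the 2-fold limit (-1.05).

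Between LP double-positive and LP CD11b+ DCs edgeR and DESeq2 each called 0 of the 10 genes, beside 4.81% of all genes called either way by edgeR (1.14% higher, 3.67% lower), and 2 (Junb and Atf3) had an unadjusted p under 0.05. Fos, Jun, Junb, Jund, Egr1 and Ier2 held, and Fosb, Atf3, Egr3 and Nr4a1 were not resolved. Junb had 0.44 (SE 0.12, adjusted p = 0.019) and Atf3 0.62 (interval 0.03 to 1.21), and LP double-positive libraries lay above all LP CD11b+ libraries for both. Against the LP CD103+ libraries used above, double-positive DCs had higher levels of 6 genes, beside 8.1% of all genes called higher (5.52% lower, 13.6% either way), with 3.29 for Atf3 (SE 0.30, adjusted p = 2.2e-07), 2.43 for Nr4a1, 1.89 for Junb, 1.602 for Jun, 1.51 for Fosb and 1.46 for Ier2.

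In LN, CD11b+ DCs kept the highest levels of most of the 10 genes. LN CD103+ DCs were lower than LN CD11b+ DCs for 8 genes, beside 15.6% of all genes called lower (10.2% higher, 25.9% either way), with -3.81 for Nr4a1 (SE 0.40, adjusted p = 4.7e-07, 14.1-fold), -3.06 for Egr1, -2.63 for Ier2, -2.40 for Egr3, -2.13 for Fos, -1.93 for Fosb, -1.73 for Jun and -1.38 for Atf3. Junb (-0.93) and Jund (-0.75) were not resolved, and both passed 2-fold under total counts (-1.37 and -1.19). Leaving out LN CD11b+ replicate 1 or LN CD103+ replicate 3 also took Junb past the limit (-1.08 and -1.01). LN double-positive DCs were lower than LN CD11b+ DCs for 7 genes, beside 9.82% of all genes called lower (6.92% higher, 16.7% either way), with -2.60 for Nr4a1, -2.41 for Egr1, -2.08 for Egr3, -1.81 for Ier2, -1.57 for Fos, -1.30 for Fosb and -1.12 for Jun. Junb, Jund and Atf3 held there. The call of Fosb was lost without LN CD11b+ replicate 2 or LN double-positive replicate 1 (-1.12 and -1.15) and without both libraries with both sex-linked transcripts (-1.41). Between LN double-positive and LN CD103+ DCs only Atf3 was called, higher in double-positive DCs by 1.59 (SE 0.29, adjusted p = 0.00057), beside 4.69% of all genes called higher (1.84% lower, 6.53% either way), and without LN double-positive replicate 1 Nr4a1 was called as well (1.54).

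**Figure D3:**
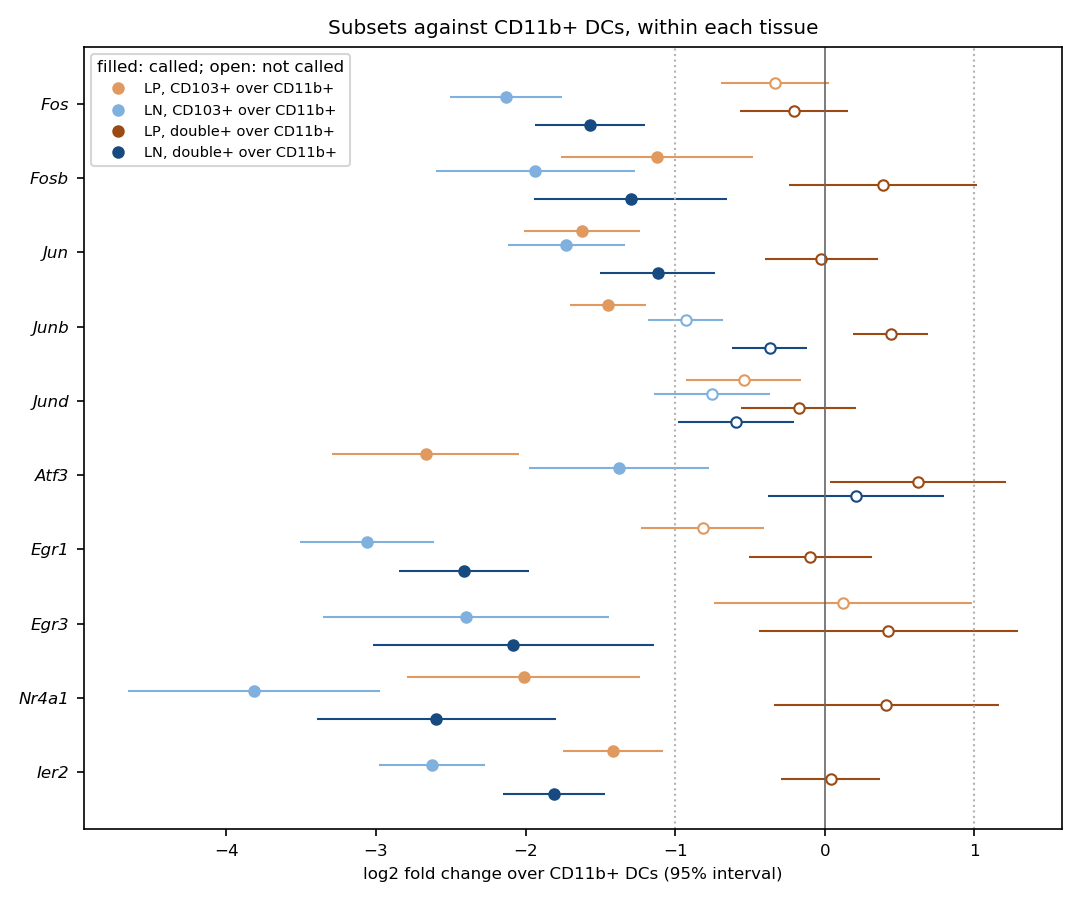
Log2 fold change of CD103+ (light) and double-positive DCs (dark) over CD11b+ DCs within LP (brown) and LN (blue) for each gene. Bars are 95% intervals, dotted lines mark 2-fold and filled points passed the call. In LP no point of the double-positive DCs is filled, while in LN 7 are.

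The 6 groups were also ordered by their means. For Fos, the LP groups and LN CD11b+ DCs overlapped one with the next, from 3037 ± 238 CPM in LP CD11b+ to 2414 ± 221 in LP CD103+ DCs (SD, n = 3), and a gap separated them from LN double-positive (962 ± 179) and LN CD103+ DCs (652 ± 170.2). For Egr1 the LP CD11b+ (1583 ± 87.3) and LP double-positive groups (1481 ± 287) overlapped and lay above LN CD11b+ (925 ± 115) and LP CD103+ DCs (898 ± 303), which overlapped each other and lay above LN double-positive (174 ± 14.4) and LN CD103+ DCs (111 ± 11.5), which did not. For Jun the order was LN CD11b+, LP CD11b+ and LP double-positive DCs, all overlapping in turn, then LN double-positive DCs, with LN CD103+ (397 ± 108) and LP CD103+ DCs (396 ± 75.1) lowest. LN CD103+ DCs had the lowest mean for 8 genes, and LP CD103+ DCs for Jun and Junb.

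The make-up of the 10 transcripts differed between tissues. Compared per kilobase of exon, Fos was the largest of the 10 in LP CD103+ DCs with 42.6% ± 1.42 of their sum (SD, n = 3), and Junb was the next with 19.7% ± 1.32. In LN CD103+ DCs Junb held 49.6% ± 2.998 and Fos 22.4% ± 2.89, and no library of one tissue overlapped with the other for either gene. In CD11b+ DCs Fos and Junb had nearly equal shares, with 25.1% ± 1.41 and 25.0% ± 0.265 in LP and 30.7% ± 2.595 and 28.8% ± 2.28 in LN. The ratio of FOS family (Fos and Fosb) to JUN family transcripts (Jun, Junb and Jund), summed per kilobase within each library and so independent of the scaling between libraries, was 1.61 ± 0.0798 in LP CD103+ and 0.361 ± 0.0577 in LN CD103+ DCs. It was 0.516 ± 0.0624 in LP and 0.365 ± 0.0390 in LN double-positive DCs, without overlap. In CD11b+ DCs the ratios of the tissues overlapped, at 0.751 ± 0.0499 in LP and 0.757 ± 0.0711 in LN. LP CD103+ DCs were the only group in which every library held more FOS than JUN family transcript per kilobase (lowest ratio 1.56). In double-positive DCs Junb made up 30.6% ± 2.11 of the sum in LP and 46.7% ± 1.26 in LN, without overlap, while Fos overlapped (19.4% ± 1.499 and 21.3% ± 1.37). Ier2 made up less of the sum in LN in every subset, without overlap, with 21.2% ± 0.645 and 13.3% ± 1.29 in CD11b+, 16.8% ± 2.45 and 7.09% ± 0.712 in CD103+ and 19.6% ± 0.639 and 7.92% ± 0.493 in double-positive DCs.

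**Figure D4:**
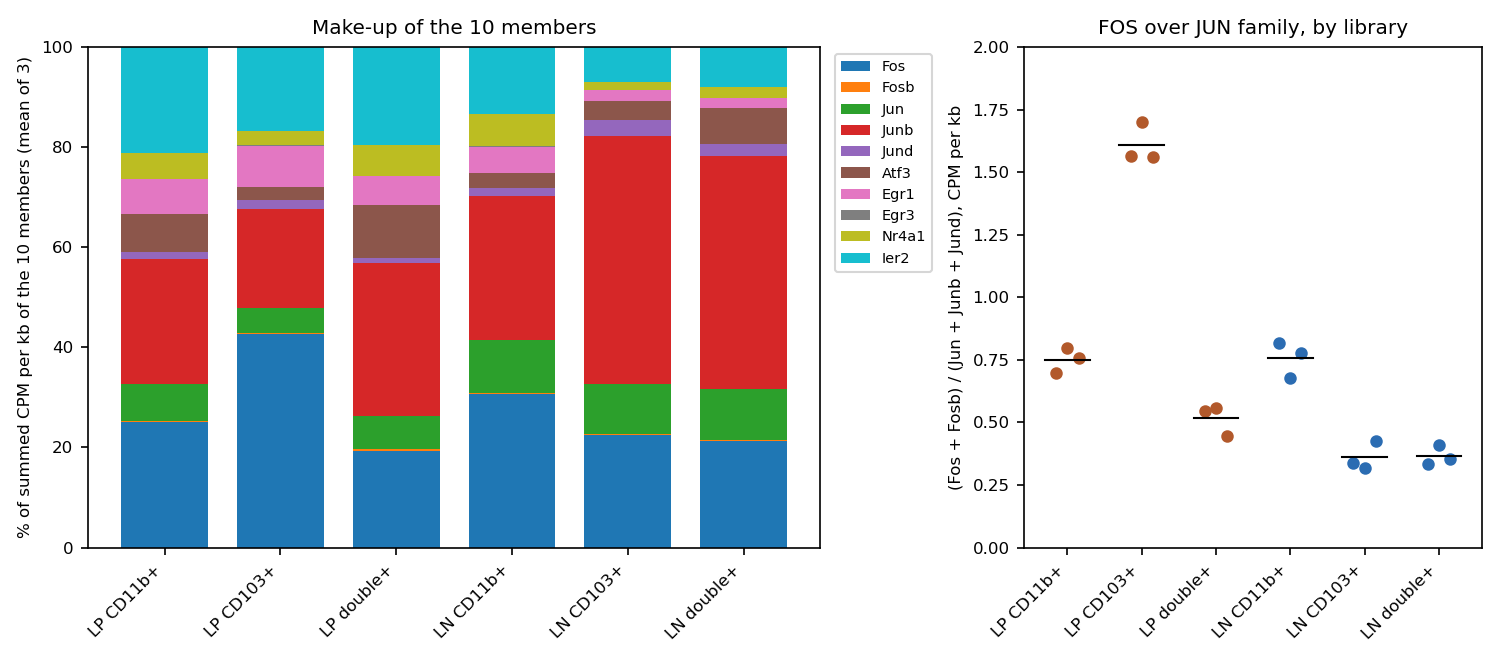
Left, share of each gene in the summed CPM per kilobase of the 10 genes, as the mean of 3 libraries in each group. Right, ratio of FOS to JUN family transcripts per kilobase in each library (points, brown LP and blue LN) with group means (bars). The LP CD103+ libraries lie between 1.56 and 1.70 and the LN CD103+ libraries between 0.318 and 0.426.

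As a share of all reads counted on genes, the 10 genes together took 1.32% ± 0.112 in LP CD11b+, 0.598% ± 0.0809 in LP CD103+ and 1.41% ± 0.154 in LP double-positive DCs. In LN the shares were 1.16% ± 0.123, 0.253% ± 0.0297 and 0.413% ± 0.0460 in the same order. The CD11b+ libraries overlapped between tissues and those of the other two subsets did not.

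Replicates of a group differed to unequal degrees in these genes. The median coefficient of variation over the 6 groups was 36.6% for Egr3, 28.3% for Nr4a1, 25.9% for Fosb and 23.4% for Atf3, and 8.62% for Junb. Over all tested genes in groups where their mean was at least 10 CPM the median was 8.66%, and 9 of the 10 lay above it. No such limit was set for the 10 genes, and Egr3 had means of 2.55 and 3.20 CPM in LN CD103+ and LN double-positive DCs. Deviations of the libraries from their group means were positively correlated for 35 of the 45 pairs of genes (Pearson r from -0.39 to 0.89, median 0.43, 18 libraries that share depth and scaling within a pair). Egr1 and Ier2 had the highest r (0.89), then Fos and Jund (0.79). All 10 genes lay above the group mean in LP double-positive replicate 1 and 1 of 10 did in replicate 3, while 0 of 10 lay above it in LN double-positive replicate 1.

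Other genes of these families were counted from fixed lists of known members, in which all symbols that passed the filter were tested. Among 19 other AP-1 and ATF genes, 2 were higher and 3 lower in LN in CD11b+ DCs, 5 and 4 in CD103+ and 2 and 2 in the double-positive subset, with medians of -0.07, -0.01 and -0.09. Of all genes tested, 10.3% were higher and 4.93% lower, 19.8% and 15.1%, and 18.6% and 13.6% in the same subsets. The shares of the list in double-positive DCs lay below these. Averaged over subsets, the genes of that list called with the largest tissue effects were Maf (3.11, SE 0.20), a large MAF factor, Fosl2 (-1.99, SE 0.21), a FOS relative, Jdp2 (-1.72, SE 0.11), a repressor of AP-1, and Batf2 (-1.09, SE 0.13). Fosl2 was read at 28.9 ± 6.01, 4.46 ± 1.54 and 31.9 ± 5.68 CPM in LP and 17.0 ± 9.34, 1.21 ± 0.144 and 3.17 ± 1.08 CPM in LN CD11b+, CD103+ and double-positive DCs.

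Other immediate early genes included many that were higher in LN. Of 28 tested, 6 were higher and 2 lower in LN in CD11b+ DCs, 17 and 6 in CD103+ and 12 and 8 in double-positive DCs, with medians of 0.40, 1.53 and 0.45 beside -0.18, -1.41 and -2.01 for the 10 genes. The shares of all genes called higher and lower were 10.3% and 4.93%, 19.8% and 15.1%, and 18.6% and 13.6%. The largest changes were those of Gadd45b (3.46, SE 0.15), a stress sensor of the p38 pathway, Zfp36l1 (2.87, SE 0.09), which promotes decay of AU-rich mRNAs, Myc (-2.02, SE 0.12) and Dusp2 (1.93, SE 0.09), a nuclear MAP kinase phosphatase. Gadd45b was read at 37.7 ± 12.4 CPM in LP CD103+ and 1672 ± 145 CPM in LN CD103+ DCs. Within LP, the list was lower in CD103+ than in CD11b+ DCs for 12 genes and higher for 2, beside 10.6% of all genes lower and 5.07% higher.

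Among 27 regulators in the MAP kinase and serum response factor pathways, 3 were higher and 1 lower in CD11b+ DCs, 8 and 3 in CD103+ DCs and 7 and 3 in the double-positive subset. These stand beside 10.3% higher and 4.93% lower, 19.8% and 15.1%, and 18.6% and 13.6% of all genes in the same subsets. Dusp6, an ERK phosphatase whose own transcript is raised by ERK, fell by 2.78 (SE 0.10), and Mapk14 (p38 alpha) fell by 2.12 (SE 0.07), in the mean of the tissue effects. Dusp5, a nuclear ERK phosphatase, was higher by 2.25 (SE 0.10) and Spred1, an inhibitor of RAS to ERK signalling, by 1.92 (SE 0.10). By subset, Mapk14 went from 404 ± 28.1 to 300 ± 49.8 CPM in CD11b+ DCs and from 377 ± 12.2 to 39.1 ± 6.64 CPM in CD103+ DCs. It went from 404 ± 5.28 to 64.3 ± 1.84 CPM in double-positive DCs.

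Heat shock genes, which encode chaperones and their partners, were counted beside them. Of 15 tested, 2 were higher and 0 lower in LN in CD11b+ DCs, 3 and 2 in CD103+ DCs and 4 and 3 in the double-positive subset, with medians of -0.20, -0.01 and 0.04. Higher and lower calls among all genes made up 10.3% and 4.93% in CD11b+, 19.8% and 15.1% in CD103+ and 18.6% and 13.6% in double-positive DCs. In CD103+ DCs the share of the list that was called was close to that of all genes. Summed over the list, the level was 4191 to 5012 CPM in LP and 3319 to 5562 CPM in LN in CD11b+ DCs, 6104 to 7335 and 5304 to 6116 CPM in CD103+ DCs, and 3901 to 4755 and 3533 to 4787 CPM in double-positive DCs. Hspa1b (1.64, SE 0.32), Hspa1a (1.53, SE 0.29) and the co-chaperone Bag3 (1.44, SE 0.11) were higher in LN and Hspa5 of the endoplasmic reticulum lower (-1.17, SE 0.07) in the mean of the tissue effects. That mean hides differences between subsets. In CD103+ DCs Hspa1b was at 181 ± 65.5 CPM in LP and 166 ± 63.2 in LN, and Hspa1a at 95.3 ± 32.6 and 94.7 ± 31.8. In CD11b+ DCs Hspa1b was at 69.4 ± 32.5 and 310 ± 218 CPM, and Bag3 at 18.7 ± 4.13 and 20.7 ± 4.37. Hspa1a and Hspa1b are near-identical and reads may be split between them.

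DC maturation genes rose in LN in every subset, with 12 of 15 higher and 1 lower in CD11b+, CD103+ and double-positive DCs. Beside these, 10.3%, 19.8% and 18.6% of all genes were higher and 4.93%, 15.1% and 13.6% lower. Ccr7, the chemokine receptor of migrating DCs, was read at 43.4 ± 19.4, 147 ± 27.2 and 157 ± 33.9 CPM in LP and at 1572 ± 475, 11337 ± 1046 and 9025 ± 1011 CPM in LN CD11b+, CD103+ and double-positive DCs. The groups with the highest Ccr7 were those with the lowest Fos, Egr1, Egr3, Nr4a1 and Ier2. Summed over the list, maturation genes reached 5368 to 8298 CPM in LN CD11b+ DCs and 28086 to 35774 CPM in the other LN groups, and their part in the differences of the 10 genes was not tested.

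**Figure D5:**
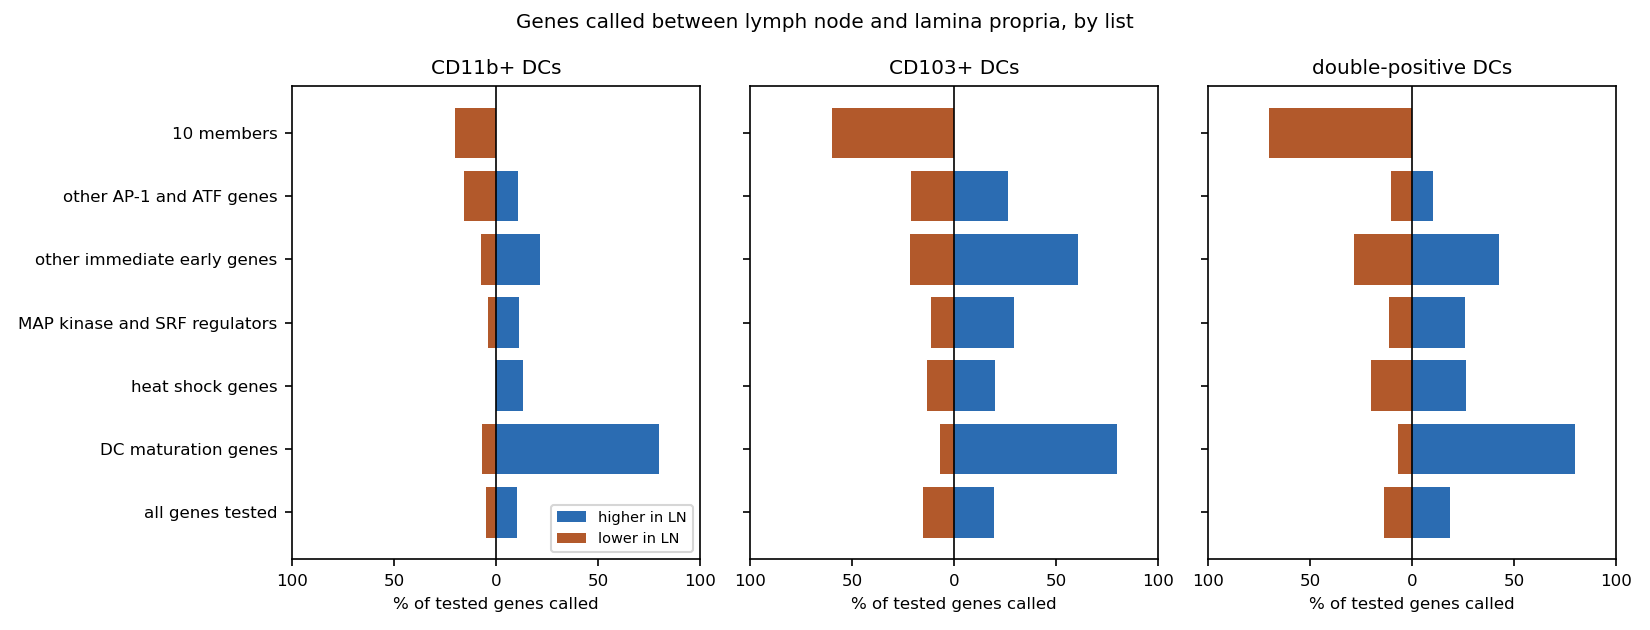
Percent of the tested genes of each list called higher (blue, to the right) or lower (brown, to the left) in LN than in LP, by subset, with all 17074 genes tested in the lowest row. The 10 genes have bars to the left only, while other immediate early genes have the longer bar to the right.

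Markers of other cell types also moved with tissue or subset. Macrophage markers (6 genes) summed to 570.2 to 1329 CPM in LP CD11b+, 36.3 to 41.9 in LP CD103+ and 270.4 to 302 in LP double-positive DCs, and to 247 to 411, 8.94 to 12.9 and 68.1 to 74.2 CPM in the LN groups in the same order. Fcgr1, which encodes the CD64 used to sort macrophages out, had 0 counts in LN CD103+ DCs. These sums were higher in CD11b+ than in CD103+ DCs in both tissues, as were Fosb, Jun, Atf3, Nr4a1 and Ier2 by the call. Of the other genes, Fos, Jund and Egr3 held between these subsets in LP and Egr1 was not resolved there. Junb and Jund were not resolved in LN. Between tissues the macrophage sums were lower in LN in each subset. Epithelial markers (5 genes) summed to 52.8 to 555 CPM in LP and 22.4 to 61.4 CPM in LN libraries. Most of that sum was Epcam, with means of 210, 47.4 and 452 CPM in LP CD11b+, CD103+ and double-positive DCs. Its LN means were 25.1, 19.1 and 57.4 CPM in the same order. Fabp2 had LP means of 7.13, 10.3 and 5.31 CPM, highest in the LP group where the sum was lowest. B cell markers were called higher in LN for 4, 3 and 4 of 4 tested genes in CD11b+, CD103+ and double-positive DCs, beside 10.3%, 19.8% and 18.6% of all genes. Mast cell markers (Kit, Cpa3, Mcpt1) summed to 104 to 159 CPM in LP and to 239 to 322, 28.8 to 47.7 and 85.1 to 129 CPM in the LN groups. Mcpt1 had 0 counts in all LP libraries and Cpa3 had LP means of 0.036 to 0.060 CPM. Kit thus made up nearly all of the LP sum. Cpa3 had LN means of 27.2 ± 30.6, 0.891 ± 0.0568 and 3.93 ± 2.87 CPM in CD11b+, CD103+ and double-positive DCs. Plasma cell markers (4 genes) summed to 1834 to 2216 CPM in LP CD11b+, 545 to 787 in LP CD103+ and 627 to 655 in LP double-positive DCs, and to 1483 to 1640.2, 345 to 467 and 382 to 676 CPM in LN. Of these 4, 3 were called lower in CD103+ than in CD11b+ DCs in both tissues, beside 10.6% of all genes in LP and 15.6% in LN. Neutrophil markers (4 genes) summed to 28.3 to 61.1 CPM in LP CD11b+ and 20.0 to 36.1 in LN CD11b+ DCs, and to at most 1.05 CPM in CD103+ and 11.9 CPM in double-positive libraries. Stroma markers (4 genes) summed to 73.6 to 82.6, 3.96 to 7.29 and 99.1 to 112 CPM in LP and to 59.98 to 72.6, 8.02 to 13.9 and 12.5 to 17.2 CPM in LN in the same order. The part of these cells in the differences of the 10 genes was not tested.

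As genes, most of the 10 were short and held few exons, but Atf3 spanned 47744 bases and Nr4a1 20527 bases with 8 exons. The median span of the 10 was 4698.5 bases, against 23226 for the 13516 protein-coding genes tested, and the median number of exons in the transcript with the longest coding sequence was 2 against 9. AUUUA, the core of the AU-rich elements that shorten the life of an mRNA, was in the 3′ UTR of 9 of 10 (90%, against 63.3% of all), with a median of 2.58 per kilobase against 1.12. Nr4a1 (5.49 per kilobase), Fos (4.89) and Junb (4.10) held the most and Ier2 held 0.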

How the data were processed

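RNA of sorted DCs was made into libraries with a SMART-seq kit for low input and sequenced on an Illumina HiSeq per the labels. The submitters' processing notes name FastQC 0.11.7, STAR 2.6 and GRCm38. The read counter and its strand setting were not given in the sources used here. Raw read counts were deposited by the authors for 54232 Ensembl genes in 18 libraries, and 54079 of the genes matched a symbol.

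Counts were filtered with filterByExpr (17074 genes kept), scaled by TMM and fitted in edgeR 4.0.16 (R 4.3.3) with 1 mean for each of 6 groups over all 18 libraries. Contrasts were tested with the quasi-likelihood test and adjusted by Benjamini-Hochberg over all genes tested. Genes were called at an adjusted p under 0.01 and a fold over 2, and the F test at the adjusted p alone. The test was checked on simulated data. Depth was 23574292 to 46901985 counts, and Egr3 had the fewest counts of the 10 genes, 52 to 105 in LN CD103+ and LN double-positive libraries.

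The 10 genes and the lists were chosen with earlier results of these data known. All 10 were named, with the 4 genes of each list that had the largest called mean tissue effect and reached a group mean of 10 CPM, and the 2 genes most correlated with each. Same-numbered libraries of different tissues did not deviate together (r from -0.10 to 0.073), so the number was not used as a pairing between tissues. Within LP, same-numbered libraries of different subsets had r from 0.075 to 0.250, over 0.1 in 8 of 9 pairs. CD103+ libraries deviated with CD11b+ (r from 0.152) and double-positive libraries (r from 0.125). For CD11b+ with double-positive libraries r was 0.212, 0.075 and 0.250. The main fit held no block, and blocked values are given where they changed a call. Alternatives were other scalings, filters, DESeq2 1.42.0, a replicate block, fewer libraries and each library left out.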

Additional observations from a re-analysis of the deposited data

Results flagged for a closer look

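The tissue effect differed between CD11b+, CD103+ and double-positive DCs for 8 of the 10 genes by the F test of edgeR's quasi-likelihood fit. The adjusted p was 4.4e-06 for Egr1, 1.4e-05 for Ier2, 2.7e-05 for Junb and 3.5e-05 for Fos. It was 0.00053 for Nr4a1, 0.0029 for Egr3, 0.0034 for Jun and 0.0054 for Atf3. Without 1 library at a time, Atf3 no longer passed in 7 cases, Jun in 4 (LP double-positive replicate 1 or 2, LN double-positive replicate 1 or 2) and Egr3 in 1 (LN CD11b+ replicate 3), with adjusted p of at most 0.021, 0.013 and 0.010 in these cases. For Atf3 the libraries were LP CD103+ replicates 1 and 2, LP double-positive replicates 1 and 2, LN CD103+ replicates 2 and 3 and LN double-positive replicate 3. Groups of 3 libraries were not tested for single libraries that stand apart.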

How the results depend on the processing

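Calls near the 2-fold or adjusted p limit depended on the processing. Fos, Egr1, Egr3, Nr4a1 and Ier2 stayed called lower in LN CD103+ and double-positive DCs under every alternative run. The number of the 10 genes called in CD11b+ DCs was 1 rather than 2 under total counts and without both LN libraries that held both sex-linked transcripts, and 1 to 2 with single libraries left out. Between LN double-positive and CD103+ DCs it was 2 with no filter (Nr4a1, 1.25) and 1 to 2 with libraries left out. For the difference of tissue effects it was 4 to 7 (double-positive against CD11b+ DCs) and 1 to 3 (double-positive against CD103+ DCs) with libraries left out. Over all genes, the mean tissue effect gave 3651 calls rather than 5590 with at least 100 counts in 3 libraries, where 11643 genes were tested, and LP double-positive against CD11b+ DCs gave 506 rather than 821 with only those 6 libraries. With a replicate block, 2 of the 10 genes were called in CD11b+ DCs, 5 in CD103+ DCs and 7 in the double-positive subset. The calls that changed were Fosb in CD103+ DCs (-1.03) and in LP CD103+ against CD11b+ DCs (-1.12), Nr4a1 in the difference of CD103+ and CD11b+ DCs (-1.68), and, with the block within tissue, the F test of Fosb (adjusted p = 0.0055).

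Signs turned only for values that were not called. Under total counts these were Fos (0.048) and Nr4a1 (0.11) in CD11b+ DCs, Jun in CD103+ DCs (-0.22, and -0.055 with no filter), Ier2 in LP double-positive against CD11b+ DCs (-0.021) and Atf3 in LN double-positive against CD11b+ DCs (-0.16). Egr3 in LN double-positive against CD103+ DCs was -0.14 without the libraries that held both sex-linked transcripts. With 1 library left out (for Atf3 also both with the sex-linked transcripts), Jund ran from -0.061 to 0.12 and Nr4a1 from -0.40 to 0.25 in CD11b+ DCs, Jun from -0.18 to 0.18 in CD103+ DCs, and Egr3 from -0.23 to 0.42 in LP CD103+ against CD11b+ DCs. In LP double-positive against CD11b+ DCs the ranges were -0.11 to 0.10 for Jun, -0.33 to 0.061 for Jund, -0.25 to 0.035 for Egr1 and -0.016 to 0.13 for Ier2. In LN they were -0.073 to 0.47 for Atf3 (double-positive against CD11b+ DCs) and -0.14 to 0.54 for Egr3 (double-positive against CD103+ DCs).

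Total counts moved the median of all genes from 0.03 to 0.17 in CD11b+, from 0.04 to -0.18 in CD103+ and from 0.07 to -0.10 in double-positive DCs, and from -0.13 to -0.56 and -0.08 to -0.44 for LN CD103+ and LN double-positive against LN CD11b+ DCs. In the latter pair 1020 of 5243 and 697 of 3620 calls were then higher, rather than 1750 of 4420 and 1181 of 2857. For the differences of tissue effects from CD11b+ DCs 1070 of 3661 (CD103+) and 595 of 2355 (double-positive) were higher, rather than 1583 of 3154 and 973 of 1987. The causes of these changes were not tested. Egr3 had the lowest counts of the 10 genes and the widest spread between replicates, and each group held 3 libraries.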

Other observations

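Over the 18 libraries, the genes whose log2 levels were most correlated with each of the 10 are given as a description, since the libraries share groups, depth and scaling. Among 8674 genes, Egr1 was followed most closely by Alox5ap (Pearson r = 0.99), which serves leukotriene synthesis, and Stap1 (0.98). Nr4a1 was followed by Fosl2 (0.98) and Tagap (0.97), Fosb by Nr4a1 (0.94) and Fosl2 (0.93), and Fos by Mtg1 (0.97) and Egr1 (0.96). Junb was followed by Cd101 (0.97) and Nfkbiz (0.96), an inhibitor of kappa B family protein, and Atf3 by Frrs1 (0.96) and the chemokine gene Cxcl2 (0.94). For Jun the genes were Gm1966 (0.97) and Krt80 (0.96), for Ier2 Ifitm6 (0.99) and Naa10 (0.98), for Egr3 Fgd3 and Cntrob (0.95 each), and for Jund Ankrd10 (0.88) and Tmco1 (0.87).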
